A study of Mus musculus with 8 samples.

Results

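The genes described here encode proteins laid down in dentin and bone, except *Sp7*, which encodes a transcription factor. The genes were taken as the rows of the expression table named *Dspp*, *Dmp1*, *Ibsp*, *Mepe*, *Spp1*, *Bglap*, *Bglap2* and *Sp7*. All 8 were found, of 23358 genes in the table. RNA-seq was made from the cervical loop of the incisor of 4-week-old C57BL/6 mice. Its head region (CLH) contains dental epithelial stem cells, and its tail region (CLT) contains the cells they give rise to. *Med1* conditional knockout (cKO) mice carried *Med1* with floxed exons 8 to 10 and Cre recombinase driven by the *Krt14* promoter, which is active in epithelia, and control (Ctrl) mice were littermates without Cre. Each of the 4 groups, Ctrl CLH, cKO CLH, Ctrl CLT and cKO CLT, had 2 libraries from pooled tissues. The study drew on 2 litters, and which litter each library came from is not given in the sources used here. Libraries are named by group and replicate, such as Ctrl CLT 1.

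*Dspp*, *Dmp1*, *Ibsp*, *Mepe* and *Spp1* form the family of small integrin-binding ligand, N-linked glycoproteins (SIBLING). They are acidic phosphoproteins that bind mineral and collagen, and their genes lie side by side in mammals. Osteocalcin is a small vitamin K-dependent bone protein, which the mouse makes from the tandem genes *Bglap* and *Bglap2*. *Sp7* encodes osterix, a transcription factor needed for osteoblast formation and active in odontoblasts. Odontoblasts and osteoblasts are mesenchymal cells, whereas *Krt14*-Cre acts in epithelium.

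In mm10, *Dspp* lies at chr5:104170712-104180127, *Dmp1* at chr5:104202617-104214102, *Ibsp* at chr5:104299287-104311472, *Mepe* at chr5:104325329-104338611 and *Spp1* at chr5:104435111-104441053, all on the plus strand. These 5 genes span 270.342 kb with no other gene of the table among them. *Bglap2* at chr3:88377736-88378699 and *Bglap* at chr3:88383495-88384464 lie on the minus strand, and *Sp7* is at chr15:102357177-102366271, also on the minus strand.

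The osteocalcin pair is shown first, because it sets how far its values can be separated. The coding sequences of *Bglap* and *Bglap2* in the GENCODE M21 annotation of mm10 are both 288 bases long and 98.6% identical. Capitals mark the 4 positions at which they differ.
Bglap: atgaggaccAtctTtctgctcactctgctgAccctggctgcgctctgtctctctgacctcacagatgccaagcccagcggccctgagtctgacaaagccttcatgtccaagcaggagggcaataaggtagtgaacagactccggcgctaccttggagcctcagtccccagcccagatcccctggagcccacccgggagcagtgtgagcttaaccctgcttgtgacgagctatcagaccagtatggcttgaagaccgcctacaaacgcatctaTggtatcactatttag
Bglap2: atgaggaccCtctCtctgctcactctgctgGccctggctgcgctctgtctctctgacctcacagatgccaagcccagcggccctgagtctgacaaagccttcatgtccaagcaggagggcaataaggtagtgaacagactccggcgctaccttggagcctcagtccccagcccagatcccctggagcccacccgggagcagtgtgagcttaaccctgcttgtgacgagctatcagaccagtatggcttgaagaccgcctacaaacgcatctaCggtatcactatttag
Of the 391 windows of 50 bases in the *Bglap* transcript, 74.7% also occur in *Bglap2*. The division of reads between the pair is therefore uncertain, and their values are best read together.

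The promoters of 4 members are shown next, chosen because they hold matches to a short motif that RUNX2 and its relatives bind. The letters ACCACA, or TGTGGT for the other strand, were searched in the 250 bases before the gene start in the RefSeq promoter table (GRCm38.p6), which holds *Dmp1*, *Ibsp*, *Mepe*, *Spp1* and *Bglap*. They occur in 4 of these 5 promoters, against 14.0% of 32851 promoters of the same length in that table. *Ibsp*, with 0 reads in both cKO CLT libraries, had no match and is not shown. The longer AACCACA, or TGTGGTT, which contains the shorter motif, occurs in *Dmp1* and *Spp1* and in 4.40% of all promoters. Capitals mark the 6-letter matches, each sequence being read along its gene at chr5:104202367-104202616 (plus strand), chr5:104325079-104325328 (plus), chr5:104434861-104435110 (plus) and chr3:88384467-88384716 (minus).
Dmp1: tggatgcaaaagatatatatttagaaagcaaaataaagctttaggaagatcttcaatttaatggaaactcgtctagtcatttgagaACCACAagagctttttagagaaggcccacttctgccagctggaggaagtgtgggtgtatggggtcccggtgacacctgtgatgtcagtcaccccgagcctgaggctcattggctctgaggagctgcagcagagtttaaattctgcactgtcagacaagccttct
Mepe: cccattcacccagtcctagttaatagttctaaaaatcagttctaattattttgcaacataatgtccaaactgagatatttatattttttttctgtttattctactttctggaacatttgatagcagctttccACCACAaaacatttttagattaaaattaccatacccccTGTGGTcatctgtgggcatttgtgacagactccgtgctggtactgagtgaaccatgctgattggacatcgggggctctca
Spp1: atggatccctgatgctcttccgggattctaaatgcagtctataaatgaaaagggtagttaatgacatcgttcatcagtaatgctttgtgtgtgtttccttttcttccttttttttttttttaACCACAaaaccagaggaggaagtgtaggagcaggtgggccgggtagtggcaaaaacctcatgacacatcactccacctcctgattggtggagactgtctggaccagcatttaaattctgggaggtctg
Bglap: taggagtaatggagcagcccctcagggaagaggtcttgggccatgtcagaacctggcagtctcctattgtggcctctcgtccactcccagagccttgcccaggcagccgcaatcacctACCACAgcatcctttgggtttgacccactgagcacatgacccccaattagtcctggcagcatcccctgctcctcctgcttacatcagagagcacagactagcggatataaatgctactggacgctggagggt
The motif begins 164 bases before the start of *Dmp1*, 128 before *Spp1* and 132 before *Bglap*, and 118 and 80 before *Mepe*, the last on the opposite strand. A match describes these letters only, and binding was not measured here. *Runx2* itself, named here after its values were seen, had RPKM of 10.2 and 21.6 in Ctrl CLT against 2.07 and 1.48 in cKO CLT (limma adjusted p = 0.064).

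Values are RPKM, which divide a gene's reads by its length and by the library's total, so that levels can be compared between genes. Multiplied by gene length they came out as whole reads for all values checked, 13884 to 15399 per library, which gave library totals of 26590000 to 34420000 reads and the reads behind each value. The 2 libraries of a group had a median absolute log2 ratio per gene of 0.103 to 0.132 in CLH and cKO CLT, and of 0.423 in Ctrl CLT, whose libraries stood apart from each other. *Med1*, the targeted gene, had RPKM of 7.71 and 9.12 in Ctrl CLH against 7.10 and 7.03 in cKO CLH, whereas Ctrl CLT had 4.83 and 8.71 against 9.15 and 8.96 in cKO CLT. It was thus not lower in the libraries labelled cKO CLT, and a value over the whole gene does not resolve exons 8 to 10, so cKO below means the libraries labelled cKO. The tissue is labelled as dental epithelial cells, yet the 10 dental mesenchyme markers summed to RPKM of 1115 to 1871 in all 8 libraries beside 611 to 2332 for the 7 epithelium markers.

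In the libraries labelled cKO CLT, all 8 genes were at or near 0, whereas 7 of them were high in the other 6 libraries. The 8 genes together held 78276 to 134998 reads in each Ctrl or CLH library, which is 0.348% to 0.476% of its reads on genes. They held 91 reads in cKO CLT 1 and 91 in cKO CLT 2, or 0.000395% and 0.000403%. In bulk tissue, fewer cells that make these RNAs and less RNA per cell cannot be told apart. Which cells made them was not tested, and markers of several cell types also moved in these libraries, as given below.

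*Dspp* encodes dentin sialophosphoprotein, the most abundant non-collagen protein of dentin. Its RPKM was 545 and 423 in Ctrl CLH against 654 and 537 in cKO CLH, whereas Ctrl CLT had 543 and 644 against 0.145 and 0.174 in cKO CLT. The first 3 groups overlapped, and the cKO CLT libraries, with 18 and 21 reads, lay far below every other. The mean fell from 594 ± 71.5 in Ctrl CLT to 0.159 ± 0.0204 in cKO CLT (SD, n = 2), which is 3726 times lower. On the scale of log2(RPKM + 1) used for all tests, which understates changes toward 0, the difference was -9.00 ± 0.16 (SE, limma adjusted p = 0.0049).

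*Dmp1* encodes dentin matrix protein 1, made by odontoblasts and osteocytes. It had RPKM of 47.1 and 49.9 in Ctrl CLH against 46.3 and 49.5 in cKO CLH, whereas Ctrl CLT had 15.6 and 17.9 against 0.0517 and 0.0664 in cKO CLT. The levels fell into 3 separate steps, with both CLH groups at the top, Ctrl CLT in the middle and cKO CLT at the bottom with 4 and 5 reads. The cKO CLT mean was 283 times lower than that of Ctrl CLT, a log2 difference of -4.06 ± 0.18 (SE, limma adjusted p = 0.020).

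*Ibsp* encodes bone sialoprotein, which nucleates mineral in bone and cementum. Its RPKM was 94.8 and 76.0 in Ctrl CLH, 111 and 86.5 in cKO CLH, and 22.4 and 75.6 in Ctrl CLT, and no read was found in either cKO CLT library. A count of 0 allows up to 3 reads per library, or RPKM of 0.0547 and 0.0562, and covers counting error only. Against that limit, *Ibsp* was at least 883-fold lower in cKO CLT than in Ctrl CLT, at least 403-fold against Ctrl CLT 1 alone and at least 1362-fold against Ctrl CLT 2 alone. The log2 difference of -5.40 ± 0.62 (SE) had a limma adjusted p of 0.051 and did not pass the threshold of 0.05, although the groups did not overlap.

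*Spp1* encodes osteopontin, a matrix protein and cytokine that macrophages and osteoclasts also make. It had RPKM of 217 and 228 in Ctrl CLH against 216 and 215 in cKO CLH, whereas Ctrl CLT had 52.2 and 185 against 0.839 and 0.531 in cKO CLT, the last from 39 and 24 reads. The CLH libraries were nearly level, and Ctrl CLT 1 stood between them and cKO CLT. The mean was 173 times lower in cKO CLT than in Ctrl CLT, or 76.2 times against Ctrl CLT 1 alone and 270.5 times against Ctrl CLT 2 alone. The log2 difference was -5.89 ± 0.66 (SE, limma adjusted p = 0.049).

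*Mepe*, which encodes matrix extracellular phosphoglycoprotein of osteocytes and odontoblasts, was low throughout. Its RPKM was 0.501 and 0.177 in Ctrl CLH, 0.881 and 0.362 in cKO CLH, and 0.224 and 0.537 in Ctrl CLT, from 8 to 50 reads, and it had 0 reads in both cKO CLT libraries. The first 3 groups overlapped. Against 3 reads per library the Ctrl CLT mean was at least 5.89-fold higher, and the gene was below the filter on low values and was not tested.

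*Bglap* had RPKM of 423 and 348 in Ctrl CLH against 364 and 461 in cKO CLH, whereas Ctrl CLT had 490 and 397 against 0.686 and 0.411 in cKO CLT. The 3 high groups overlapped, and the cKO CLT libraries held 12 and 7 reads. The cKO CLT mean was 809 times lower than that of Ctrl CLT, with a log2 difference of -8.16 ± 0.19 (SE, limma adjusted p = 0.0058).

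*Bglap2* had RPKM of 35.3 and 32.5 in Ctrl CLH against 31.4 and 38.8 in cKO CLH, whereas Ctrl CLT had 25.8 and 38.6 against 0.454 and 1.48 in cKO CLT. It was 33.3 times lower in cKO CLT than in Ctrl CLT, with a log2 difference of -4.10 ± 0.37 (SE, limma adjusted p = 0.040). *Bglap* was 10.3 to 19.0 times as high as *Bglap2* in 6 libraries but 1.51 and 0.278 times as high in cKO CLT 1 and 2, where *Bglap2* rests on 6 and 19 reads. From which gene so few reads came is uncertain.

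*Sp7*, the only transcription factor gene of the set, had RPKM of 62.3 and 60.6 in Ctrl CLH against 68.4 and 62.6 in cKO CLH, whereas Ctrl CLT had 29.0 and 63.8 against 0.187 and 0.241 in cKO CLT, the last from 12 and 15 reads. Apart from Ctrl CLT 1, the libraries outside cKO CLT lay close together. The mean was 217 times lower in cKO CLT than in Ctrl CLT, or 136 times against Ctrl CLT 1 alone and 298 times against Ctrl CLT 2 alone, with a log2 difference of -5.18 ± 0.42 (SE, limma adjusted p = 0.037).

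**Figure D1:**
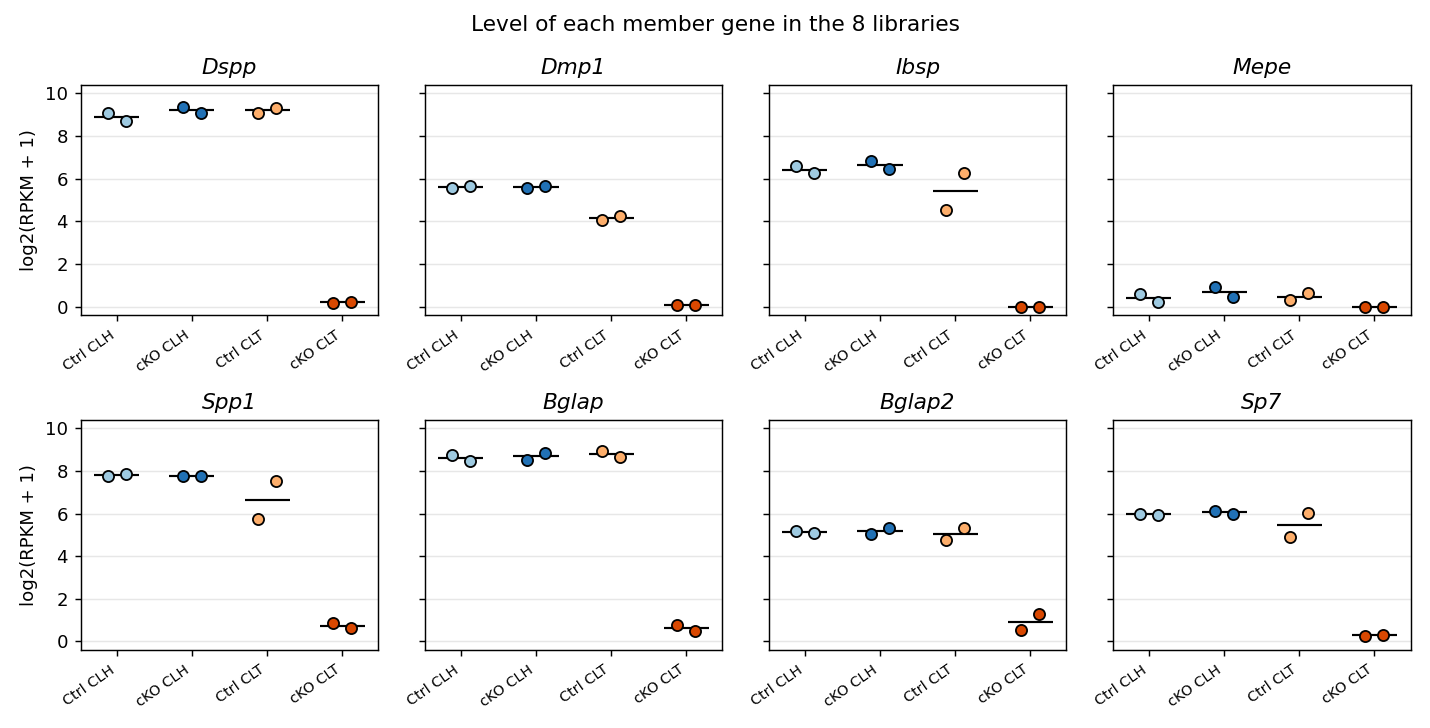
Level of each gene as log2(RPKM + 1) in the 8 libraries, with 1 panel per gene, 1 point per library and a bar at the mean of the 2 libraries of a group. The cKO CLT points lie at or near 0 in every panel, *Dmp1* forms an intermediate step in Ctrl CLT, and *Ibsp*, *Spp1* and *Sp7* have 1 lower Ctrl CLT library.

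In CLT, 6 of the 7 genes tested were thus called lower in cKO than in Ctrl by limma, against 1.68% of all 14148 genes tested, and 0 were called higher, against 0.0777%. All 7 had cKO values below both Ctrl values, as had 35.1% of all genes tested. Their median log2 difference was -5.40, against -0.01 over all genes. *Dspp* had the 5th lowest log2 difference of all genes tested and *Bglap* the 8th lowest, and *Dmp1*, the least changed on this scale, ranked 50th from the bottom. Of 5387 genes that reached an RPKM of 10 in both Ctrl CLT libraries, 46 (0.854%) were under 1 in both cKO CLT libraries, and these held 6 of the 7 such genes described here, the exception being *Bglap2*. The number of members called moved both ways when 1 library was left out, and such a fit leaves 1 library in its group. *Dspp* and *Bglap* alone stayed called when either cKO CLT library was left out. Without Ctrl CLT 1 the members' log2 differences ran from -9.12 to -4.15, and without Ctrl CLT 2 from -8.87 to -3.82. They ran from -8.98 to -3.72 without cKO CLT 1 and from -9.02 to -4.07 without cKO CLT 2. A model of the recovered reads (limma-voom) called only *Dspp* (adjusted p = 0.048).

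**Figure D2:**
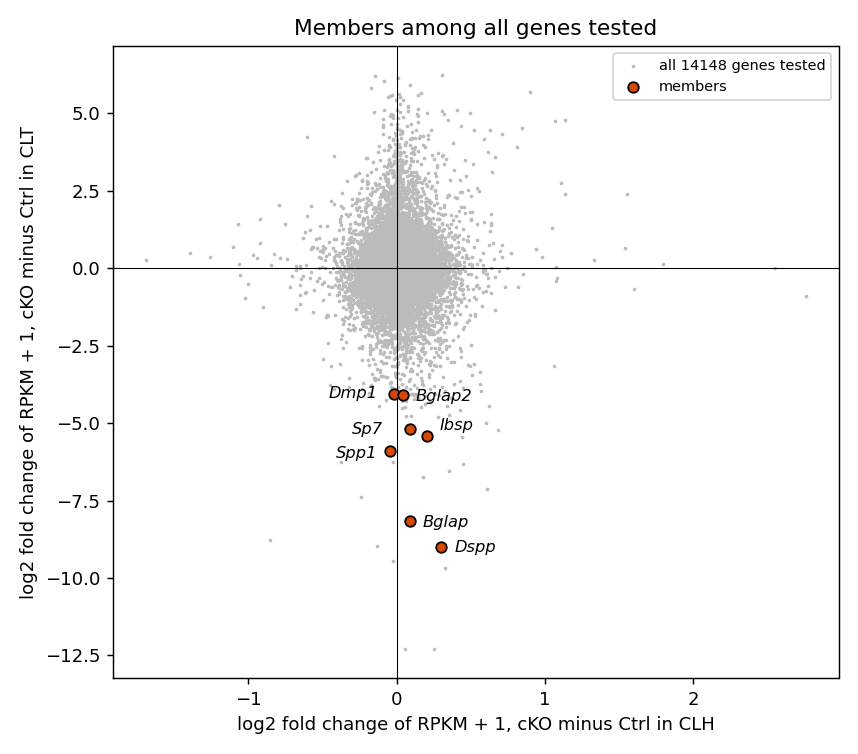
Each grey point is 1 of the 14148 genes tested, placed by its log2 fold change of RPKM + 1 between cKO and Ctrl in CLH (horizontal axis) and in CLT (vertical axis), with the 7 tested members as large points. The members lie between -9.00 and -4.06 on the vertical axis and between -0.05 and 0.30 on the horizontal axis.

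In CLH, the same genes were at similar levels in cKO and Ctrl mice. The log2 differences ran from -0.05 ± 0.06 (SE) for *Spp1* to 0.30 ± 0.17 for *Dspp*, with *Ibsp* at 0.21 ± 0.17, *Bglap* at 0.09 ± 0.16, *Sp7* at 0.09 ± 0.07, *Bglap2* at 0.04 ± 0.12 and *Dmp1* at -0.02 ± 0.06. No member was called by limma (adjusted p from 0.72 to 0.95) or by limma-voom, and 0 of 7 had an unadjusted p under 0.05, as did 2.42% of all genes tested in the lower direction and 4.83% in the higher. No gene of the table passed the adjusted threshold in either direction (0%). *Spp1* was lower in both cKO CLH libraries than in both Ctrl ones, by 1.03 times in the mean, and *Sp7* was higher in both, by 1.07 times. Non-overlap of this kind was seen for 18.8% of all genes in the lower and 19.9% in the higher direction.

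The cKO difference in CLT and that in CLH were compared as an interaction over all 8 libraries. It was negative for 7 of 7 genes tested and called for all 7, against 9.58% of all genes tested in that direction. It was -9.30 ± 0.23 (SE, limma adjusted p = 7e-05) for *Dspp*, -8.26 ± 0.26 (adjusted p = 0.00016) for *Bglap* and -4.04 ± 0.15 (adjusted p = 0.00024) for *Dmp1*. *Sp7* had -5.27 ± 0.46 (adjusted p = 0.0031), *Bglap2* -4.14 ± 0.42 (adjusted p = 0.0048), *Spp1* -5.84 ± 0.74 (adjusted p = 0.0085) and *Ibsp* -5.61 ± 0.72 (adjusted p = 0.0088), all from limma. Limma-voom called 6 of the 7, with *Ibsp* at an adjusted p of 0.17. These p-values rest on 1 spread shared by all groups, although the libraries of Ctrl CLT differed more than those of the other groups. Fitting all 8 libraries at once raised the CLT calls over all genes from 237 lower and 11 higher to 2831 and 3352. With any 1 library left out all 7 stayed negative, between -9.48 and -3.76. Whether *Ibsp* and *Spp1* were called depended on the library left out.

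Between the regions of Ctrl mice, the members' log2 differences had both signs, and differences between members were not tested. *Dmp1* was 2.90 times lower in CLT than in CLH, with a log2 difference of -1.48 ± 0.14 (SE) that did not pass over all genes (limma adjusted p = 0.22). *Dspp* had a log2 difference of 0.30 ± 0.19 and *Bglap* of 0.20 ± 0.19, within the spread of the libraries. *Ibsp* (-1.02 ± 0.63), *Spp1* (-1.17 ± 0.65), *Sp7* (-0.50 ± 0.41) and *Bglap2* (-0.10 ± 0.23) carried larger errors. No member was called by limma or limma-voom, and 1, *Dmp1*, had an unadjusted p under 0.05, against 9% of all genes in that direction. Of all genes tested, 0% were called lower and 0.00707% higher. The members' log2 differences ran from -2.07 to 0.35 without Ctrl CLT 2 and from -1.39 to 0.42 without Ctrl CLT 1. Without Ctrl CLT 1, *Ibsp* was at -0.17, *Spp1* at -0.26 and *Sp7* at 0.05.

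Within Ctrl CLT the members split by how much the 2 libraries differed. Ctrl CLT 2 was 3.55 times as high as Ctrl CLT 1 for *Spp1*, 3.38 times for *Ibsp*, 2.40 times for *Mepe*, 2.20 times for *Sp7* and 1.49 times for *Bglap2*. It was 1.19 times as high for *Dspp* and 1.14 times for *Dmp1*, and *Bglap* was 1.24 times as high in Ctrl CLT 1. Skeletal muscle markers summed to RPKM of 891 in Ctrl CLT 1 and 66.6 in Ctrl CLT 2, and the 8 ameloblast markers to 84708 and 37512. The part of these differences in the members' values was not tested.

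Over the 6 libraries without cKO CLT, Pearson's r of log2(RPKM + 1) was 0.98 between *Ibsp* and *Sp7*, 0.98 between *Spp1* and *Sp7* and 0.97 between *Ibsp* and *Spp1*. *Bglap* had r of -0.63 with *Ibsp* and of -0.66 with *Spp1*, and *Dspp* had r of 0.17 with *Ibsp* and of 0.11 with *Bglap*. These values describe 6 libraries, of which Ctrl CLT 1 alone is low for *Ibsp*, *Spp1* and *Sp7*. Over all 8 libraries the pairs of tested members had r of 0.96 or above, since both cKO CLT libraries were near 0 for each gene.

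Between the regions of cKO mice, all 7 tested genes were called lower in CLT than in CLH, where 45.1% of all genes were called in that direction. The log2 difference was -9.00 ± 0.11 (SE) for *Dspp*, -8.06 ± 0.13 for *Bglap*, -7.01 ± 0.11 for *Spp1*, -6.63 ± 0.13 for *Ibsp*, -5.78 ± 0.10 for *Sp7*, -5.53 ± 0.10 for *Dmp1* and -4.24 ± 0.23 for *Bglap2*. The limma adjusted p ran from 1.6e-10 to 5.7e-07. The median over the 7 was -6.63, against -0.18 over all genes. This comparison uses the same cKO CLT libraries as the comparison of cKO and Ctrl in CLT.

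**Figure D3:**
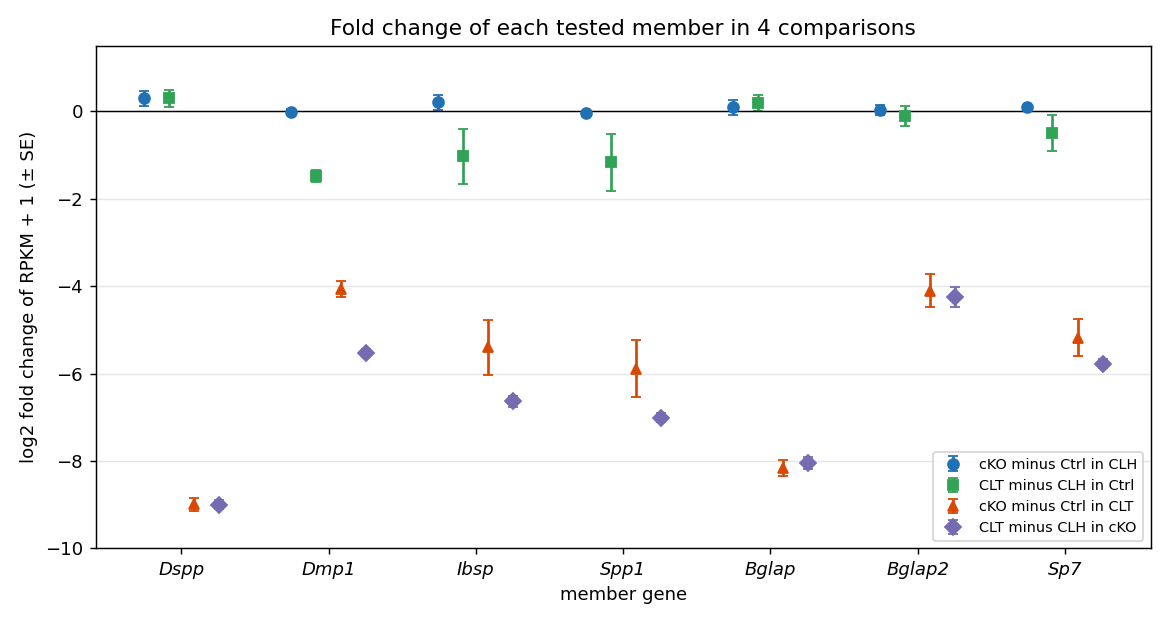
Log2 fold change of RPKM + 1, with its SE as the bar, of each of the 7 tested genes in 4 comparisons of 2 libraries against 2. Both comparisons that involve cKO CLT lie between -9.00 and -4.06, and those of cKO and Ctrl in CLH lie within 0.30 of 0.

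The genes next to the members were not near 0 in cKO CLT as a rule. *Sparcl1*, a SPARC-like matrix gene beside *Dspp*, had RPKM of 60.4 and 70.8 in Ctrl CLT against 40.6 and 41.0 in cKO CLT, and *Pkd2*, on the other side of *Spp1*, had 7.95 and 17.7 and then 7.55 and 6.48. *Gm17660*, beyond *Sparcl1*, had 6.07 and 43.8 in Ctrl CLT against 0.408 and 0 in cKO CLT, and *BC005561*, beyond *Pkd2*, had 0.785 and 2.10 and then 0.303 and 0.453. On chromosome 3, *Pmf1* (11.6 and 14.3, then 19.3 and 20.0), *Paqr6* (1.39 and 1.78, then 2.33 and 2.61) and *Slc25a44* (10.8 and 8.80, then 9.17 and 9.60) were all detected in cKO CLT. Around *Sp7*, *Aaas* had 14.7 and 13.3 and then 22.8 and 22.1, *Sp1* 11.5 and 19.0 and then 17.4 and 16.7, and *Myg1* 18.3 and 13.5 and then 14.5 and 15.7. *Amhr2* was under 0.5 in all 8 libraries.

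**Figure D4:**
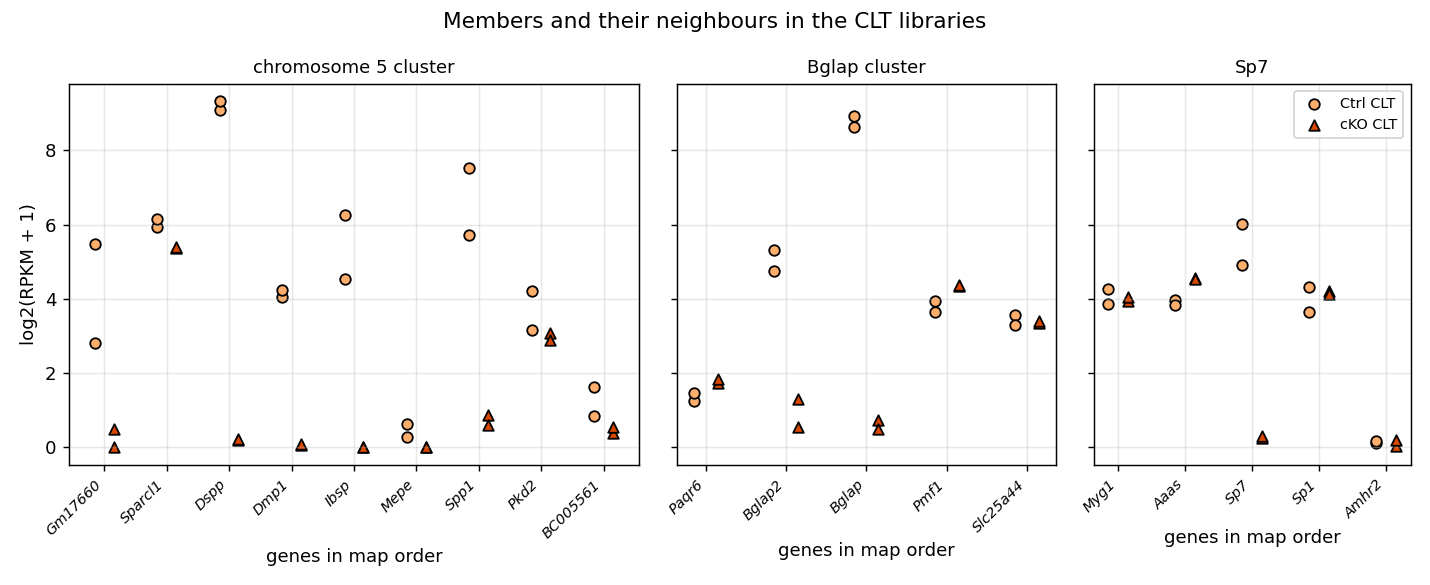
Log2(RPKM + 1) of the members and of up to 2 of the nearest genes on each side, in map order, with 1 panel per locus, circles for the Ctrl CLT libraries and triangles for the cKO CLT libraries. The members are near 0 in cKO CLT, while neighbours such as *Sparcl1*, *Pmf1* and *Sp1* are not.

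The members were then set beside a list of other genes of dentin and bone matrix. Of 20 genes of bone and dentin matrix and mineralization, 19 were tested in CLT, and limma called 3 lower in cKO and 0 higher. At an unadjusted p under 0.05 these were 9 lower and 1 higher. The share over all genes at this threshold in CLT is not given here. Such counts, for this list and those below, therefore do not set a list apart from all genes. The median log2 difference was -0.86, against -0.01 over all genes. The 3 were *Alpl*, the tissue-nonspecific alkaline phosphatase that frees phosphate for mineral (-6.73 ± 0.21, adjusted p = 0.013), *Phex*, a phosphate-regulating peptidase named here because the count is small (-4.06 ± 0.38, adjusted p = 0.043), and *Fmod*, a collagen-binding proteoglycan (-4.06 ± 0.46, adjusted p = 0.049). *Ank*, a pyrophosphate transporter, was at 0.23 ± 0.25. *Col1a1* and *Col1a2*, the chains of type I collagen, which is the bulk of bone and dentin matrix and was named after its values were seen, kept much higher levels. *Col1a1* had RPKM of 1067 and 1335 in Ctrl CLT against 376 and 472 in cKO CLT, and *Col1a2* had 674 and 831 and then 639 and 699.6. *Dspp* thus stood at 50.9% and 48.3% of the *Col1a1* RPKM in Ctrl CLT and at 0.0385% and 0.0368% in cKO CLT. Which cells made the collagen RNA was not tested.

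Of 20 regulators of odontoblasts and osteoblasts, all were tested, and limma called 0 in either direction in CLT. At an unadjusted p under 0.05, 11 were lower and 2 higher, and the median was -1.11, against -0.01 over all genes. The homeobox gene *Dlx5* was the lowest at -3.76 ± 0.48 (limma adjusted p = 0.057). *Klf4* (1.07 ± 0.22), a zinc-finger factor, and *Vdr* (1.07 ± 0.15), the vitamin D receptor, were the highest, with adjusted p of 0.076 and 0.060 from limma.

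A further list held 16 genes for enzymes that process SIBLING proteins or osteocalcin, or receptors that bind them. All 16 were tested in CLT, where limma called 4 lower and 0 higher, with a median of -1.27. At an unadjusted p under 0.05, 13 were lower and 1 higher, and the median over all genes was -0.01. *Mmp20*, an enamel protease that is also an ameloblast marker, was at -6.54 ± 0.27 (limma adjusted p = 0.020), and *Fam20c*, the kinase that phosphorylates SIBLING proteins, was at -3.95 ± 0.32 (limma adjusted p = 0.037). The protease *Mmp3* was at 2.05 ± 0.47 (limma adjusted p = 0.082). The others called, named because the count is small, were *Fam20a*, the pseudokinase partner of *Fam20c*, at -3.12 ± 0.31 (limma adjusted p = 0.045), and the integrin gene *Itgb5* at -1.23 ± 0.14, whose limma adjusted p lay just under the threshold of 0.05.

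Markers of other cell types moved in the same libraries. The 8 ameloblast markers summed to RPKM of 12639 to 14460 in CLH, 84708 and 37512 in Ctrl CLT against 153 and 156 in cKO CLT, and 7 of 8 were called lower in CLT by limma. *Amelx* (-12.31) and *Ambn* (-12.30), which encode enamel matrix proteins, were the lowest and *Dlx3* (0.16) the highest. The 10 skeletal muscle markers summed to 36.4 to 43.0 in CLH, 891 and 66.6 in Ctrl CLT against 2411 and 2643 in cKO CLT, with 0 of 10 called, and *Acta1* (3.70) and *Myh4* (3.80) had the largest differences. The 7 epithelium markers summed to 611 to 714 in CLH, 1514 and 862 in Ctrl CLT against 2072 and 2332 in cKO CLT, with 0 of 7 called, from *Itgb4* (-0.94) to *Epcam* (1.42) and *Krt15* (2.77). The part of these shifts in the members' values was not tested.

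The 10 dental mesenchyme markers summed to 1115 and 1871 in Ctrl CLT and to 1136 and 1247 in cKO CLT, with 0 of 10 called in CLT. *Lum* (-3.15) and *Prrx2* (-2.59) were the lowest, and *Col3a1* (0.91) and *Thy1* (1.21) the highest. The sum in cKO CLT was mostly *Col3a1*, without which the other 9 summed to 588 and 1415 in Ctrl CLT against 262 and 268 in cKO CLT. At an unadjusted p under 0.05, 7 of the 10 were lower and 2 higher. The median log2 difference was -1.38, against -0.01 over all genes. The part of this shift in the members' values was not tested. Osteocyte markers summed to 47.3 and 85.9 in Ctrl CLT against 20.9 and 18.0 in cKO CLT, with 0 of 4 tested called and *Dkk1* (-2.78) and *Irx5* (-2.01) the lowest, and the defining *Sost* and *Fgf23* were at most 1.10 and 0.0415 in any library. Osteoclast markers summed to 120.5 and 240.0 in Ctrl CLT against 59.8 and 58.1 in cKO CLT, with 1 of 5 tested, *Mmp9* (-3.42), called lower, *Acp5* at -1.53 and *Nfatc1* at 0.18. Macrophage markers summed to 260.3 and 292 and then to 319 and 327, with 0 of 10 called, *C1qb* at -1.32 and *Gpnmb* at 3.53. Without *Gpnmb*, which led the sum in cKO CLT, the other 9 macrophage markers summed to 206 and 288 in Ctrl CLT against 143 and 142 in cKO CLT. Of the 10, 9 had a negative log2 difference, 4 of them at an unadjusted p under 0.05. Their median was -0.60, against -0.01 over all genes. Chondrocyte markers summed to 27.6 and 69.6 and then to 2.54 and 2.28, with 0 of 5 tested called, *Col11a1* at -3.90 and *Col9a1* at -1.63, and the defining *Col2a1* was at most 1.14 in any library. All these differences are of log2(RPKM + 1) between cKO and Ctrl in CLT.

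**Figure D5:**
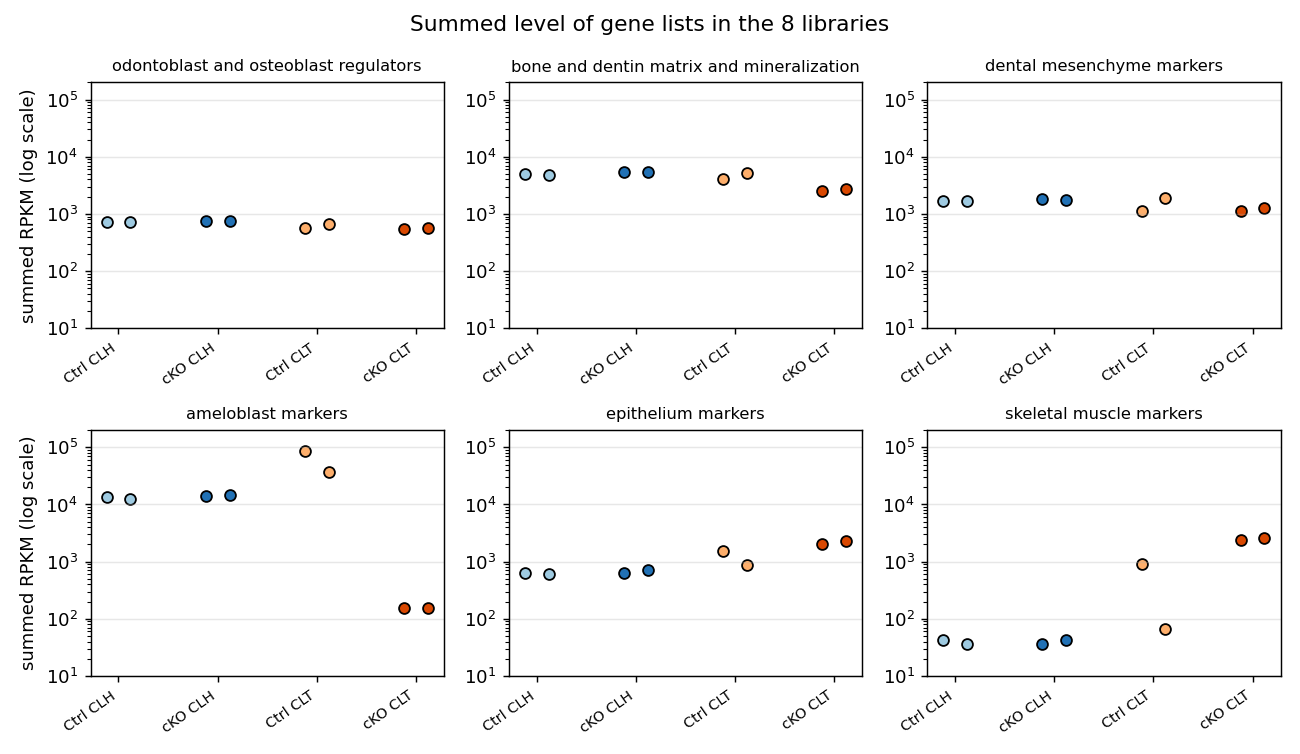
Summed RPKM of 6 gene lists in each library on a log scale, with 1 point per library. Ameloblast markers are lowest and skeletal muscle markers highest in the cKO CLT libraries. Bone and dentin matrix is also lowest there, at 2554 and 2692 against 4052 and 5173 in Ctrl CLT. The regulators sum to 554 and 559 against 567 and 679, and dental mesenchyme markers to 1136 and 1247 against 1115 and 1871. A sum is led by its highest genes, and genes within these lists moved in both directions.

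The genes whose pattern over the 8 libraries was most like that of 3 members were named without a test. For *Dspp* they were *Alpl*, *Tgfbr2*, *Vldlr*, *Mpzl1* and *Wisp1*, for *Ibsp* *Mtap1b*, *Scara3*, *Lama1*, *Sdc3* and *Hand2*, and for *Spp1* *Nacc2*, *Abat*, *Lama1*, *Slc7a2* and *Scara3*. Pearson's r of log2(RPKM + 1) was 0.998 to 0.999 among 13386 genes, and it was set largely by the 2 cKO CLT libraries. Among the genes like *Dspp*, RPKM in Ctrl CLT 1 and Ctrl CLT 2 was 264 and 369 for *Alpl*, 37.7 and 38.9 for *Tgfbr2* and 104 and 101 for *Mpzl1*, with *Vldlr* at 21.9 and 25.9 and *Wisp1* at 27.5 and 32.1. Those like *Ibsp* and *Spp1* were lower in Ctrl CLT 1, as with *Scara3* at 58.1 and 138 and *Lama1* at 4.86 and 9.52. In cKO CLT, *Alpl* stood at 1.94 and 1.97, *Wisp1* at 1.65 and 1.68, *Scara3* at 8.45 and 7.86, and *Hand2*, a transcription factor gene of jaw mesenchyme, at 0 and 0.0164.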

How the data were processed

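RNA-seq of CLH and CLT from 4-week-old *Med1* cKO and Ctrl mice was used, with 2 libraries per group. The authors trimmed reads with Trim Galore 0.4.3.1, aligned them with STAR 2.6.0b-1 to mm10, counted them with featureCounts 1.6.3 and deposited RPKM per gene; the annotation, the strand setting and the total behind the RPKM are not given in the sources used here. RPKM of a gene multiplied by its length were whole multiples of 1 step per library (tolerance 0.02 reads), from which reads and totals were recovered. From the RPKM, log2(RPKM + 1) was tested with limma 3.58.1 in R 4.3.3 (eBayes with a variance trend, 2 groups per fit) for the 14148 genes that reached an RPKM of 1 in 2 or more libraries, with Benjamini-Hochberg adjustment over all of them and a threshold of 0.05. The script was tested on simulated data. Lists were named by counts, the up to 2 highest and 2 lowest log2 differences in CLT, and marker sums. For *Dspp*, *Ibsp* and *Spp1* the 5 genes of highest Pearson's r were named, and for each locus the 2 nearest genes on each side. Of the genes so named, 2 are not reported here. The members and lists were chosen with earlier results of these data known. Of 126 list genes, 3 were matched by an older symbol. Promoters (RefSeq) of *Dspp*, *Bglap2* and *Sp7* were not used here. Alternatives were pseudocounts of 0.1 and 0.5, 2 filters, 2 scalings, all 8 libraries in 1 fit, a replicate block, other eBayes settings, limma-voom on recovered reads, a log2 limit of 1, and each library left out in turn. A crossed replicate block was chosen after seeing the data.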

Additional observations from a re-analysis of the deposited data

Results flagged for a closer look

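The cKO difference of 7 genes differed between the regions by the interaction test of limma over all 8 libraries. The cKO difference in CLT minus that in CLH was -9.30 for *Dspp*, -8.26 for *Bglap*, -5.84 for *Spp1*, -5.61 for *Ibsp*, -5.27 for *Sp7*, -4.14 for *Bglap2* and -4.04 for *Dmp1* on the scale of log2(RPKM + 1), and all 7 were negative. In each case the CLH difference lay between -0.05 and 0.30, so that the interaction follows the CLT difference. Groups of 2 libraries allow no search for single outlying libraries.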

How the results depend on the processing

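With 2 libraries per group, calls depended on how the spread was estimated, while directions in CLT did not: all 119 member values over 17 alternatives kept their sign. The count of 6 members called in CLT was 1 with no filter on low values, 1 with limma-voom, and 2 to 7 when 1 library was left out. Leaving a library out leaves 1 in its group, which is assumed to vary like the other group. The replicate block gave 7 members called in CLT, 0 in CLH, 0 between regions in Ctrl, 7 between regions in cKO and 7 for the interaction. The study used 2 litters, but the labels do not tie a number to a litter. Deviations of same-numbered libraries from their group means correlated at -0.192 between Ctrl CLT and cKO CLT, 0.0656 between the CLH groups, 0.195 between the Ctrl groups, 0.307 between the cKO groups and -0.136 and -0.113 across genotype and region, so the numbers were not taken to pair the samples. The block raised the calls in CLT over all genes from 237 lower and 11 higher to 856 and 888. The crossed block gave 2 members, with 9 genes lower and 0 higher. Between regions in Ctrl, 0 members were called in the fit as reported, 1 with all 8 libraries in 1 fit and 0 to 5 when 1 library was left out. The interaction count was 5 to 7 and the count between regions in cKO was 7 under each library left out. All 9 sign changes were in differences that were not called. Between regions in Ctrl, *Bglap2* turned to 0.068 under median-of-ratios scaling and ranged from -0.38 to 0.18 with 1 library left out, and *Sp7* from -1.06 to 0.054, the positive values being those without Ctrl CLT 1. In CLH with 1 library left out, *Dmp1* ranged from -0.067 to 0.029, *Bglap* from -0.079 to 0.26 and *Bglap2* from -0.11 to 0.19. The cause was not tested. Median-of-ratios scaling moved the median of all genes between regions in Ctrl from -0.13 to 0.01 and changed the split of calls between regions in cKO from 6384 lower and 4084 higher to 4884 and 5270. *Mepe*, tested only with no filter, was at -0.46 in CLT (limma adjusted p = 0.16) and at -0.68 between regions in cKO (limma adjusted p = 0.045). Depth limits *Ibsp* and *Mepe* in cKO CLT to an upper bound of 3 reads.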
